A study of Mus musculus with 15 samples.

Results

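Genes for channels that move water, potassium, chloride or cations were followed in the choroid plexus of mice lacking Add1. They were chosen by name for their link to the secretion of cerebrospinal fluid, with earlier results of these data known. They are Aqp1, Kcnj13, Kcne2, Kcnq1, Kcna1, Kcna3, Clcn2, Clic6, Trpv4 and Trpm3, 10 of the 19938 genes that had a probe set with a single gene symbol, and 1 probe set read each of them. Add1 encodes alpha-adducin, which caps actin filaments and joins them to spectrin under the plasma membrane. The series holds 5 Add1 null (knockout), 5 Add1 heterozygous and 5 Add1 wild-type mice, with 1 array for each mouse, all of the C57BL/6J strain, labelled male and 3 weeks old. The study chose that age to come before hydrocephalus develops. Neither the kind of null allele nor the stretch of Add1 it lacks is stated in the labels, and the series' wording does not settle whether the tissue came from the fourth ventricle or from all ventricles.

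The choroid plexus epithelium takes water and ions from the blood side and releases them into the ventricles as cerebrospinal fluid. The sodium pump on the ventricular side drives this, potassium channels return the potassium that the pump brings in, and aquaporin-1 gives water a path through the membrane. Chloride and bicarbonate follow through transporters and anion channels, and cation channels of the transient receptor potential (TRP) families let calcium in when cells swell, stretch or bind certain steroids.

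Start regions are shown for the 3 members with the smallest adjusted p between null and wild-type mice, so that a gene that was higher and genes that were lower can be read side by side. The RefSeq table of promoters (GRCm38.p6) held 7 of the 10 members; Clic6, Kcna1 and Kcnq1 had no entry. Each line holds 300 bases, 5′ to 3′ on the gene's own strand, and capitals mark a match to a searched motif.
Aqp1, chr6:55336049-55336348, plus strand: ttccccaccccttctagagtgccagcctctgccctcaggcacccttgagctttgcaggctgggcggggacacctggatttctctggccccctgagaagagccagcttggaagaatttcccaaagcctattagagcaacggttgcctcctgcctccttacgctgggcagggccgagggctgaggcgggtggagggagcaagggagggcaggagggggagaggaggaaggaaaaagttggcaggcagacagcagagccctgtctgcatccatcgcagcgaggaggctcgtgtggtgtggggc
Kcnj13, chr1:87394680-87394979, minus strand: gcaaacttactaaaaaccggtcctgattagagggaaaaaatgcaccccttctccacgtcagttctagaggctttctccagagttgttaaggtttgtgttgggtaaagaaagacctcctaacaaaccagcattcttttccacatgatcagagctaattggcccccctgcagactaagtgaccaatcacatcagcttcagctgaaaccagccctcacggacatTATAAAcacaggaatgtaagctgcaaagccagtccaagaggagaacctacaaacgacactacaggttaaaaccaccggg
Kcne2, first of its 2 listed starts, chr16:92292139-92292438, plus strand: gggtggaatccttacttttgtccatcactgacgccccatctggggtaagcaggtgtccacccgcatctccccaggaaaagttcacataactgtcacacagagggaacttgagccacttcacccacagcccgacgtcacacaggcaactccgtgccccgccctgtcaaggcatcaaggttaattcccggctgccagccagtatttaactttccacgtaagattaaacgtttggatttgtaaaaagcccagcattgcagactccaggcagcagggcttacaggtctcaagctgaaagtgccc
mmu-miR-204-5p, the mature product of Mir204, seed (bases 2 to 8) in capitals, chr19:22750610-22750631, plus strand: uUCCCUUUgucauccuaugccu
The motifs searched on both strands were TATAAA (the TATA box), TAATCC (a core bound by OTX2), CACGTG (an E-box) and GTAAACA (a forkhead site), and they were picked after values were known. TATAAA stood in Kcnj13 alone among the members, with its first base 29 bases before the listed start, and 13.6% of all 32851 promoters in the table held it. The other motifs were not in the windows of the 7 members, and were in 7.06% (TAATCC), 7.15% (CACGTG) and 3.65% (GTAAACA) of all promoters. The miRNA is shown because Mir204 lies inside Trpm3 on chromosome 19 and its own probe set is reported beside Trpm3. Kcnj13 lies inside another gene, Gigyf2, on chromosome 1.

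Levels are the deposited values on the log2 scale, so a difference of 1 is a doubling. The level of 1 gene cannot be set against that of another, because each probe set binds with its own strength. A gene was tested if its level exceeded 5.33, the median of all values, in at least 5 arrays, and a difference was called when its adjusted p (limma, Benjamini-Hochberg over all 10069 tested genes) was under 0.05. Of the members, 9 were tested. Kcna1 was above 5.33 on 0 of the 15 arrays, Kcnq1 on 6 and Kcna3 on 12, while the other 7 were above it on all 15. In bulk tissue, fewer cells of a type and less RNA per cell cannot be told apart.

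The labels were checked before the members were compared. Add1 ranged from 7.41 to 7.76 in null arrays, from 7.68 to 7.92 in heterozygous arrays and from 7.78 to 8.04 in wild-type arrays. The ranges of null and wild-type arrays were apart, and null arrays held 80.6% of the wild-type Add1 level (log2 difference -0.31, SE 0.0791, limma adjusted p = 0.024). Arrays null 1 and null 5 went against the labelled sex: Xist, the RNA of the inactive X chromosome, was 9.09 and 9.69 there and at most 3.88 on the other arrays, and the mean of the Y-linked genes was 3.75 and 3.76 there and at least 7.16 elsewhere. The null minus wild-type difference of each tested member is therefore also given without these 2 arrays, which leaves null 2, 3 and 4. The Add1 difference was then -0.26 (limma adjusted p = 0.101). Of 12 measured epithelial markers, Kcnj13 alone was called. The mean of the other markers apart from Clic6, 10 genes, was 10.87 to 11.06 in null, 10.87 to 11.03 in heterozygous and 10.94 to 11.04 in wild-type arrays. Markers of other cells were compared between null and wild-type arrays by log2 difference, with a call at a limma adjusted p under 0.05. Of 4 tested endothelial genes 2 were higher in null, Kdr (0.49) among them. The fibroblast gene Dcn (0.68) was higher, 1 of 7 stromal genes. Of 4 ependymal genes 1 was higher (Ccdc153, 0.53) and 1 lower (Dynlrb2, -0.31). Tested markers of neurons, oligodendrocytes, astrocytes, macrophages and erythroid cells gave 0 calls, and 7.73% of all tested genes were called. The mean of 6 endothelial markers was 5.88 to 6.45 in null, 5.57 to 5.92 in heterozygous and 5.65 to 6.13 in wild-type arrays.

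Between null and wild-type choroid plexus, 5 of the 9 tested channel genes were called. Aqp1, Clcn2 and Trpm3 were higher in null, and Kcnj13 and Kcne2 were lower. Of all 10069 tested genes, 7.73% were called in this comparison, 4.17% as higher and 3.56% as lower. The median log2 difference of the 9 tested members was 0.01 and that of all tested genes 0.01. By unadjusted limma p under 0.05 it was 6 of 9 members against 24% of all tested genes, and the 2 genotypes had separate ranges for 4 of 9 against 5.96%. Without null 1 and null 5, Aqp1 was the 1 member still called. Calls over all 10069 tested genes fell from 778 to 396 in that setting. Between null and heterozygous choroid plexus, Aqp1 and Trpm3 were higher and Kcnj13 and Kcne2 were lower in null, 4 of 9 against 7.93% of all tested genes (4.32% higher, 3.61% lower). Here 6 of 9 had an unadjusted p under 0.05 against 25.8% of all tested genes, and null and heterozygous arrays did not overlap for 3 of 9 against 5.76%. These comparisons share the null arrays, and each also shares arrays with the comparison of heterozygous and wild-type mice.

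**Figure D1:**
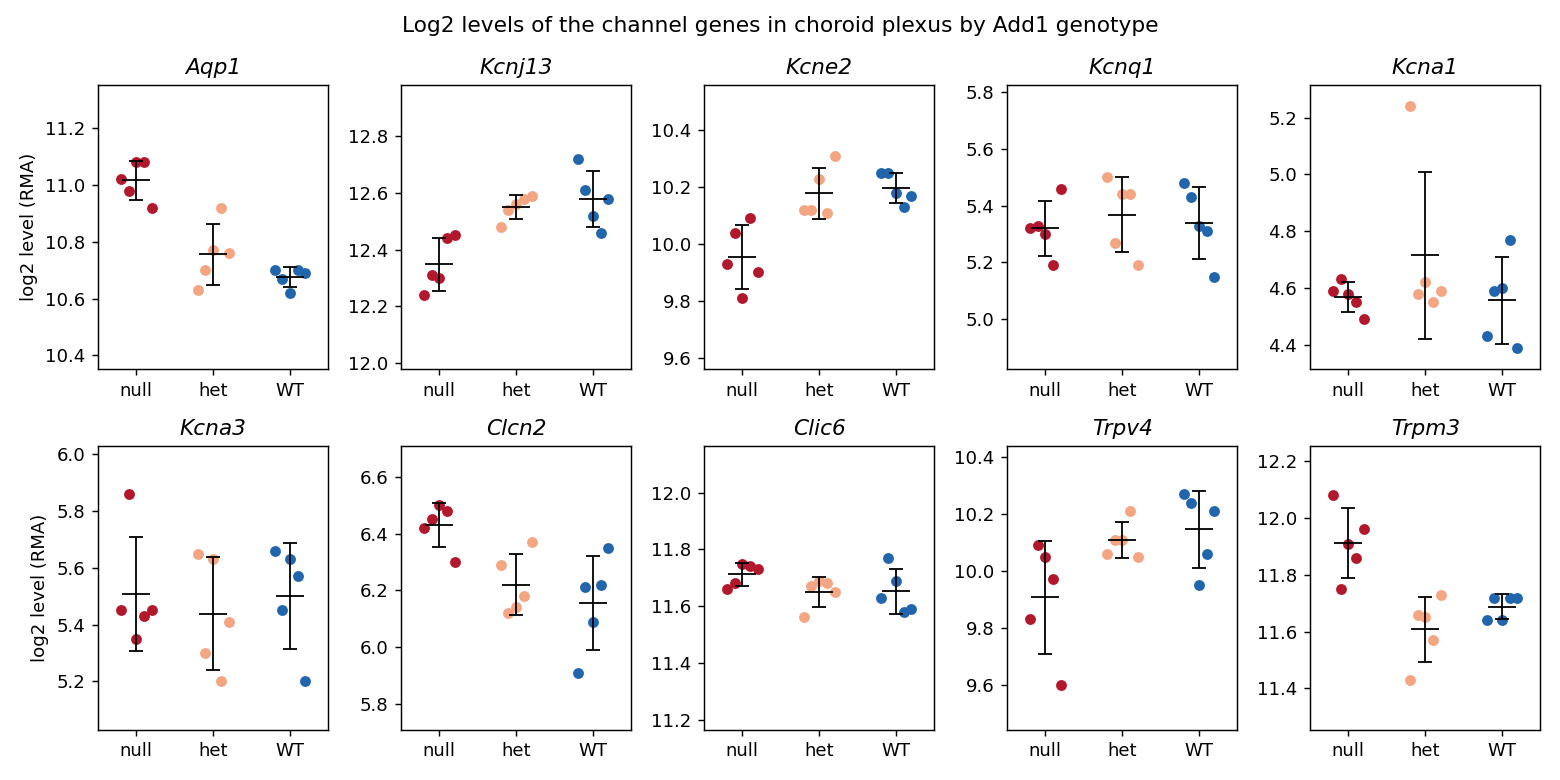
Log2 levels of the 10 channel genes on each of the 15 arrays, with null, heterozygous (het) and wild-type (WT) mice from left to right; points are arrays, and bars are the mean ± SD (n = 5). Every panel spans the same log2 range around its own gene. Null arrays lie above all wild-type arrays for Aqp1 and Trpm3 and below all of them for Kcnj13 and Kcne2.

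Aqp1 encodes the water channel of the ventricular membrane of the epithelium. Its level was 11.02, 10.98, 11.08, 11.08 and 10.92 in null arrays, 10.63, 10.70, 10.77, 10.92 and 10.76 in heterozygous arrays, and 10.70, 10.67, 10.62, 10.70 and 10.69 in wild-type arrays. All 5 null arrays were above the highest wild-type array, and 4 of 5 were above the highest heterozygous array, which null 5 equalled. Aqp1 averaged 11.02 ± 0.0684 in null, 10.76 ± 0.107 in heterozygous and 10.68 ± 0.0336 in wild-type arrays (SD, n = 5 each). It was 1.27-fold higher in null than in wild-type arrays (log2 difference 0.34, SE 0.0574, 95% interval 0.22 to 0.46, limma adjusted p = 0.00254). The exact permutation test between null and wild-type gave p = 0.00794, the lowest that 5 arrays a group allow (two-sided, n = 5 each). Against heterozygous arrays the log2 difference was 0.26 (1.20-fold, 95% interval 0.14 to 0.38, limma adjusted p = 0.0126, exact permutation p = 0.0159). The difference between null and wild-type stayed called whichever array was left out, and it was 0.37 without the 2 arrays that went against their labelled sex (limma adjusted p = 0.00616).

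Aqp1 was the 1 aquaporin called. Of 11 other aquaporin genes, 4 were tested and 0 passed in any pair of genotypes, where at most 7.93% of all tested genes did. Aqp4, the water channel of astrocytes and ependymal cells, differed by 0.55 between null and wild-type (limma adjusted p = 0.119), with 6.07 to 7.26 in null and 5.84 to 6.19 in wild-type arrays. Its ranges overlapped. The mean of 6 astrocyte markers, a set that includes Aqp4 itself, reached higher in null and heterozygous arrays. It was 6.08 to 7.02 in null, 5.95 to 7.13 in heterozygous and 5.97 to 6.18 in wild-type arrays. The part of astrocytes in the Aqp4 values was not tested. Aqp11, an aquaporin of internal membranes, differed by -0.10 (limma adjusted p = 0.356), Aqp2, known from the collecting duct of the kidney, by -0.15 (limma adjusted p = 0.198), and Aqp5, known from glands and airways, by -0.01 (limma adjusted p = 0.982).

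Kcnj13 encodes an inward rectifier potassium channel that sits with the sodium pump in the ventricular membrane. Its level was 12.24, 12.31, 12.30, 12.44 and 12.45 in null arrays, 12.48, 12.54, 12.56, 12.58 and 12.59 in heterozygous arrays, and 12.72, 12.61, 12.52, 12.46 and 12.58 in wild-type arrays. The null arrays were lower than every heterozygous and every wild-type array, although null 5 at 12.45 was close to wild-type 4 at 12.46. Null arrays held 85.3% of the wild-type level (log2 difference -0.23, SE 0.0596, 95% interval -0.36 to -0.10, limma adjusted p = 0.027) and 86.9% of the heterozygous level (log2 difference -0.20, limma adjusted p = 0.0459). Both exact permutation tests gave 0.00794, the smallest possible p (n = 5 each). The call against wild-type was lost without null 1, null 3, wild-type 1 or wild-type 2 (log2 difference -0.22 to -0.19, limma adjusted p 0.0657 to 0.0803). It was also lost without both arrays against the labelled sex, at almost the same size (-0.23, limma adjusted p = 0.0647).

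Kcne2 encodes a small subunit that joins pore-forming potassium channels and changes their gating and place in the membrane. In mouse choroid plexus it is known to assemble with the products of Kcnq1 and Kcna3. Its level was 9.93, 10.04, 9.81, 10.09 and 9.90 in null arrays, 10.12, 10.12, 10.23, 10.11 and 10.31 in heterozygous arrays, and 10.25, 10.25, 10.18, 10.13 and 10.17 in wild-type arrays. As for Kcnj13, every null array was below every array of the other genotypes. Null arrays held 84.6% of the wild-type level (log2 difference -0.24, SE 0.0619, 95% interval -0.37 to -0.11, limma adjusted p = 0.0255) and 85.6% of the heterozygous level (log2 difference -0.22, limma adjusted p = 0.0362). The exact permutation p was 0.00794, the smallest possible, against both (n = 5 each). The call against wild-type was lost without null 1, null 3, wild-type 1 or wild-type 2 (log2 difference -0.24 to -0.21, limma adjusted p 0.0576 to 0.0733), and without both arrays against the labelled sex (-0.22, limma adjusted p = 0.111). Against heterozygous arrays, the calls of Kcnj13 and Kcne2 were lost in 10 and 7 of the 15 fits that left out 1 array. Within genotypes the levels of Kcne2 and Kcnj13 had a Pearson r of 0.46 over the 15 arrays, which share the scaling between arrays and is given as a description.

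The pore-forming partners were near the filter and were not called. Kcnq1, a voltage-gated potassium channel, was at 5.32, 5.33, 5.30, 5.19 and 5.46 in null arrays, 5.50, 5.27, 5.44, 5.44 and 5.19 in heterozygous arrays, and 5.48, 5.43, 5.33, 5.31 and 5.15 in wild-type arrays. Its ranges coincided, and the log2 difference between null and wild-type was -0.02 with a 95% interval of -0.18 to 0.14 (limma adjusted p = 0.899). Without both arrays against the labelled sex it was -0.07 (limma adjusted p = 0.717). Kcna3, a voltage-gated potassium channel best known from T lymphocytes, was at 5.45, 5.86, 5.35, 5.43 and 5.45 in null arrays, 5.65, 5.30, 5.63, 5.20 and 5.41 in heterozygous arrays, and 5.66, 5.45, 5.63, 5.57 and 5.20 in wild-type arrays. Null 2 stood alone at the top, and the log2 difference between null and wild-type was 0.01 with a 95% interval of -0.23 to 0.24 (limma adjusted p = 0.979). Without both arrays against the labelled sex it was 0.04 (limma adjusted p = 0.886). Kcna1, a voltage-gated potassium channel known from axons, was at 4.59, 4.63, 4.58, 4.55 and 4.49 in null arrays, 5.24, 4.58, 4.62, 4.55 and 4.59 in heterozygous arrays, and 4.43, 4.59, 4.60, 4.77 and 4.39 in wild-type arrays. Kcna1 was not tested across genes, and its exact permutation p was 0.881 between null and wild-type, 0.421 between heterozygous and wild-type and 0.365 between null and heterozygous (n = 5 each). Differences of genes with levels this low can be compressed on arrays, and whether they were so here was not tested.

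Other potassium channel genes gave 0 calls in the 3 pairs of genotypes, and few of them were tested. Of all tested genes 7.73% were called between null and wild-type, 0% between heterozygous and wild-type and 7.93% between null and heterozygous. Of 14 other inward rectifiers 1 was tested, Kcnj10, a channel of glial cells that differed by 0.17 between null and wild-type (limma adjusted p = 0.537). Of 9 other genes of the Kcna family and its beta subunits 2 were tested, of 14 two-pore domain channels 4, and of 5 measured Kcnq and Kcne genes and 8 calcium-activated channels 0. Kcnk1, a two-pore domain channel, was at 10.95 to 11.14 in null, 11.05 to 11.13 in heterozygous and 10.97 to 11.16 in wild-type arrays (log2 difference between null and wild-type -0.04, limma adjusted p = 0.707). Kcnk18, another two-pore domain channel, had the largest difference of the potassium channels that were not called, 0.40 between null and wild-type (limma adjusted p = 0.0787).

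Clcn2 encodes a chloride channel that opens on hyperpolarization and cell swelling. Its level was 6.42, 6.45, 6.50, 6.48 and 6.30 in null arrays, 6.29, 6.12, 6.14, 6.18 and 6.37 in heterozygous arrays, and 5.91, 6.21, 6.09, 6.22 and 6.35 in wild-type arrays. Of the null arrays 4 were above the highest wild-type array, wild-type 5, and null 5 was below it. Clcn2 was 1.21-fold higher in null than in wild-type arrays (log2 difference 0.27, SE 0.0764, 95% interval 0.11 to 0.43, limma adjusted p = 0.0367, exact permutation p = 0.0159, n = 5 each). The difference of 0.21 from heterozygous arrays was not called (limma adjusted p = 0.0924). The call against wild-type was lost without null 1, null 3, null 4, wild-type 1, wild-type 2 or wild-type 3 (log2 difference 0.21 to 0.29, limma adjusted p 0.0625 to 0.101), and without both arrays against the labelled sex, where the difference was larger (0.32, limma adjusted p = 0.0536). The call was also lost with the label number, a number of unstated meaning in each sample's description, as covariate (0.17, limma adjusted p = 0.459).

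Clic6, a member of the chloride intracellular channel family that marks the choroid plexus epithelium, was at 11.66, 11.68, 11.75, 11.74 and 11.73 in null arrays, 11.56, 11.67, 11.69, 11.68 and 11.65 in heterozygous arrays, and 11.63, 11.77, 11.69, 11.58 and 11.59 in wild-type arrays. The highest array was wild-type 2, and all ranges overlapped. The log2 difference between null and wild-type was 0.06, with a 95% interval of -0.05 to 0.17 (limma adjusted p = 0.515), and without both arrays against the labelled sex it was 0.07 (limma adjusted p = 0.556). Kcne2 and Clic6 lie on the same stretch of chromosome 16, where the order of genes in GRCm38.p6 is Slc5a3, Mrps6, Kcne2, Smim11, Fam243, Smim34, Kcne1, Rcan1 and Clic6. Of the other genes in this stretch 4 were tested, and Rcan1, which lies beside Clic6 and encodes an inhibitor of calcineurin, was called. Rcan1 ranged from 7.35 to 7.72 in null, 7.67 to 8.20 in heterozygous and 7.70 to 8.10 in wild-type arrays (log2 difference between null and wild-type -0.36, limma adjusted p = 0.035). The genes on either side of Kcne2 were not called: Mrps6, a mitochondrial ribosomal protein, differed by -0.07 (limma adjusted p = 0.403) and Smim11, a small membrane protein, by -0.11 (limma adjusted p = 0.396). Slc5a3, the myo-inositol transporter that Kcne2 with Kcnq1 is known to regulate in mouse choroid plexus, differed by -0.09 (limma adjusted p = 0.44).

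Trpv4 encodes a calcium-permeable channel of the epithelium that responds to osmotic swelling. Its level was 9.83, 10.09, 10.05, 9.97 and 9.60 in null arrays, 10.06, 10.11, 10.11, 10.21 and 10.05 in heterozygous arrays, and 10.27, 10.24, 9.95, 10.06 and 10.21 in wild-type arrays. The lowest values were those of null 5 and null 1, and 2 null arrays were below the lowest wild-type array. The log2 difference of -0.24 between null and wild-type had a 95% interval of -0.42 to -0.06 and was not called (limma adjusted p = 0.0995, exact permutation p = 0.0635, n = 5 each). Null 5 and null 1 are the arrays that went against the labelled sex, and without them the difference was -0.11 (limma adjusted p = 0.456). It was called after each array was centred on its median (-0.27, limma adjusted p = 0.0494) and without null 2 (-0.28, limma adjusted p = 0.0376). The fit without null 2 called 1418 of all tested genes, against 778 with all arrays. Trpv4 is on chromosome 5, as is Add1.

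Trpm3 encodes a cation channel opened by heat and by the steroid pregnenolone sulphate. Its level was 12.08, 11.75, 11.91, 11.86 and 11.96 in null arrays, 11.43, 11.66, 11.65, 11.57 and 11.73 in heterozygous arrays, and 11.64, 11.72, 11.64, 11.72 and 11.72 in wild-type arrays. All null arrays were above all arrays of the other genotypes, although null 2 at 11.75 was close to heterozygous 5 at 11.73. Trpm3 was 1.24-fold higher in null than in heterozygous arrays (log2 difference 0.30, 95% interval 0.16 to 0.44, limma adjusted p = 0.0122) and 1.17-fold higher in null than in wild-type arrays (log2 difference 0.22, SE 0.0667, 95% interval 0.08 to 0.36, limma adjusted p = 0.0484). Both exact permutation tests gave 0.00794, the smallest possible p (n = 5 each). The call against wild-type stood at the threshold and was lost in 13 of the 15 fits without 1 array, all but those without null 2 or heterozygous 1 (log2 difference 0.18 to 0.24, limma adjusted p 0.0509 to 0.134). Some arrays share a number in their sample descriptions, within and between genotypes, and with that number as a random block this Trpm3 call was also lost (0.22, limma adjusted p = 0.0533). With that number as covariate the difference from wild-type was 0.18 (limma adjusted p = 0.358) and that from heterozygous arrays 0.26 (limma adjusted p = 0.17). Against heterozygous arrays the call was kept in all 15 fits without 1 array. Without both arrays against the labelled sex the differences were 0.15 from wild-type (limma adjusted p = 0.239) and 0.23 from heterozygous arrays (limma adjusted p = 0.079).

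Mir204, whose mature sequence is printed above, lies inside Trpm3. Its probe set read 9.43, 8.22, 9.25, 9.25 and 9.27 in null arrays, 8.04, 8.93, 8.73, 8.28 and 8.78 in heterozygous arrays, and 8.70, 8.95, 8.64, 9.0 and 8.87 in wild-type arrays. Null 1, 3, 4 and 5 were above every other array, while null 2, the null array lowest in Trpm3, was below every wild-type array. The differences were not called (null minus wild-type 0.25, limma adjusted p = 0.467; null minus heterozygous 0.53, limma adjusted p = 0.0973). Without null 2 both were called, at 0.47 from wild-type (limma adjusted p = 0.0389) and 0.75 from heterozygous arrays (limma adjusted p = 0.00322). That fit called 1418 of all tested genes against wild-type and 1815 against heterozygous arrays, where all arrays gave 778 and 798. Without both arrays against the labelled sex the Mir204 difference from wild-type was 0.07 (limma adjusted p = 0.886), and with array weights that from heterozygous arrays was called (0.53, limma adjusted p = 0.0321). Over the 15 arrays Mir204 and Trpm3 had a Pearson r of 0.845 (permutation p = 6e-05, adjusted over 2 relations 0.00012) and a Spearman rho of 0.79 (permutation p = 0.00069, adjusted 0.00069). These arrays pool the 3 genotypes, between which Trpm3 itself differed. The other relation in the adjustment was Kcne2 with Kcnj13 (Pearson r 0.817 over the same arrays, 0.46 within genotypes). Without null 1 and heterozygous 1, the arrays farthest from the median of Trpm3, the r of Mir204 and Trpm3 was 0.729. After the genotype means were taken out it was 0.865. Null 2 and heterozygous 1 were the lowest of their genotype in both genes. They also had the lowest mean of 10 epithelial markers of their genotype (10.87 each). Their mean of 5 oligodendrocyte markers was the highest of their genotype (6.80 and 7.35). The part of the tissue mix in this r was not tested. The labelling of total RNA with a whole-transcript kit does not settle whether this probe set reads the mature miRNA or the longer RNA that contains it.

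**Figure D2:**
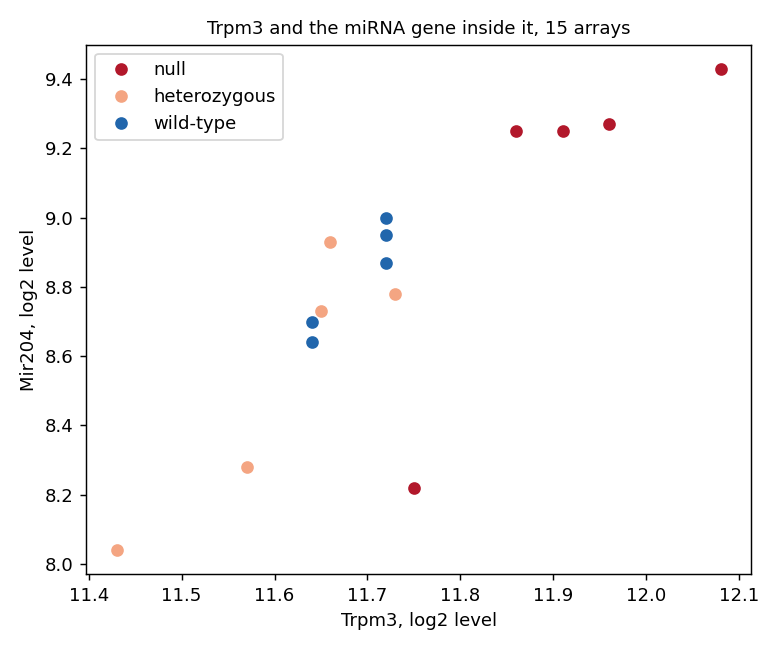
Log2 level of Mir204 (vertical) against that of Trpm3 (horizontal) on each of the 15 arrays, coloured by genotype. Null 1, 3, 4 and 5 lie at the upper right, with Mir204 at 9.25 or above, and null 2 lies apart at 8.22.

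Heterozygous mice showed no called difference from wild-type mice in the channel genes. Of the 9 tested members 0 were called by limma, and 0 had an unadjusted p under 0.05, against 0% and 3.78% of all tested genes. Heterozygous and wild-type arrays overlapped for all 9, and did not for 0.804% of all tested genes. By the exact permutation test Aqp1 had the smallest p, 0.143 (n = 5 each). The intervals bound what could have been missed: the heterozygous minus wild-type log2 difference was 0.08 for Aqp1 (95% interval -0.04 to 0.20), -0.03 for Kcnj13 (-0.15 to 0.10), -0.02 for Kcne2 (-0.15 to 0.11), 0.06 for Clcn2 (-0.10 to 0.22), -0.04 for Trpv4 (-0.22 to 0.14) and -0.08 for Trpm3 (-0.22 to 0.06). For Aqp1, the highest mean was in null. Heterozygous and wild-type ranges of Aqp1 overlapped, although 3 of 5 heterozygous arrays were above the highest wild-type array, and the difference was not called. For Kcnj13 and Kcne2 the order was null lowest, then heterozygous and wild-type, again with no separation between the last. For Trpm3 the heterozygous mean of 11.61 ± 0.115 was below the wild-type mean of 11.69 ± 0.0438 (SD, n = 5 each), within the spread.

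**Figure D3:**
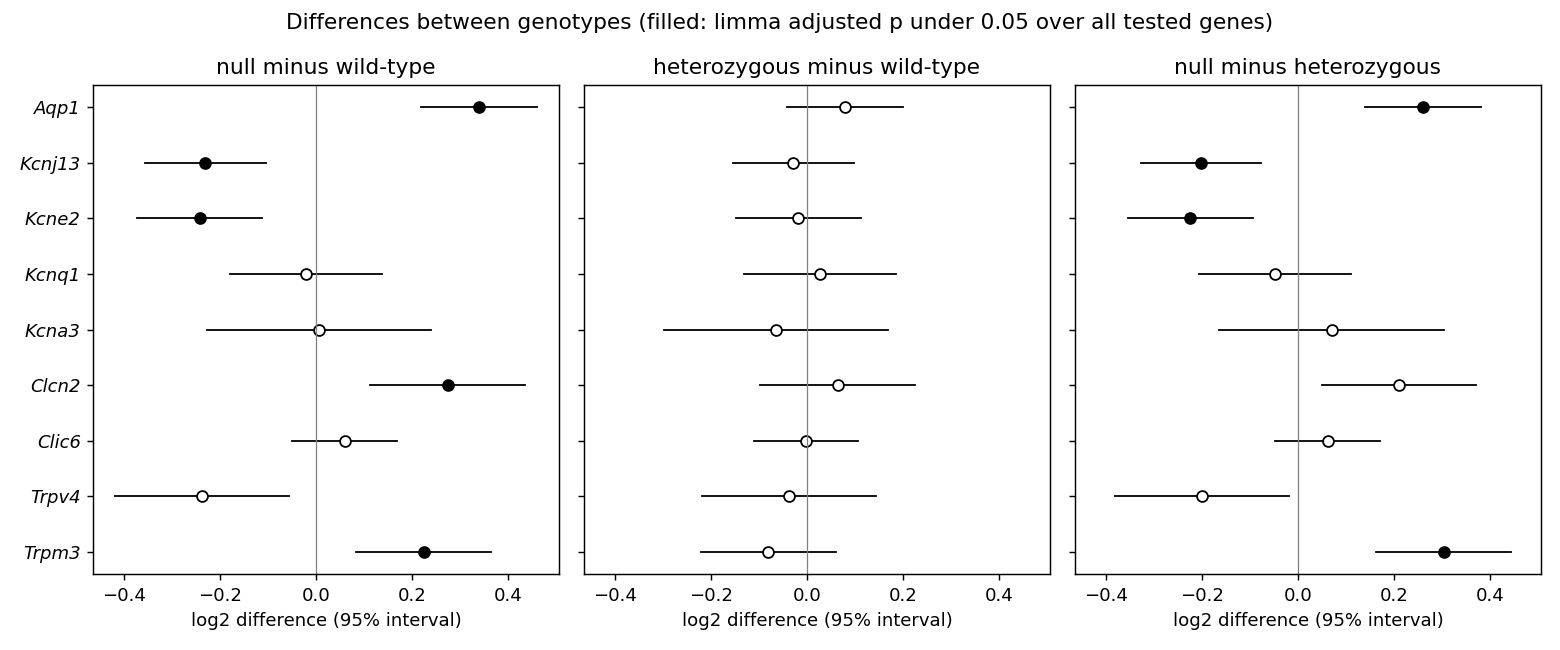
Log2 differences of the 9 tested channel genes between genotypes, from the limma fit to all 15 arrays, with 95% intervals; filled points have an adjusted p under 0.05 over all tested genes. Null minus wild-type has 5 filled points, heterozygous minus wild-type 0, and null minus heterozygous 4.

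Among 137 related genes (other members of the same channel families, partners and regulators, and neighbours of Kcne2 and Clic6), 128 were measured and 49 tested. This list, like the members, was written with earlier results of these data known. Between null and wild-type 7 were higher and 2 lower, 18.4% of the 49, against the 7.73% given above for all genes, and the median log2 difference was 0.04 over the 49. Between heterozygous and wild-type 0 were called, and between null and heterozygous 6 (12.2%), 4 of them higher. Wnk4, a kinase that regulates chloride cotransporters and channels, had the largest difference. It ranged from 5.64 to 6.72 in null, 5.10 to 5.60 in heterozygous and 5.15 to 5.51 in wild-type arrays, with no overlap between null and the others (1.63-fold, log2 difference between null and wild-type 0.71, limma adjusted p = 0.00811). The kinases that act with it were not called: Wnk1 differed by 0.10 (limma adjusted p = 0.5), Stk39 by 0.02 (limma adjusted p = 0.896) and Oxsr1 by -0.01 (limma adjusted p = 0.901). Nedd4l, a ubiquitin ligase that removes channels from the membrane, was 1.36-fold higher in null than in wild-type (log2 difference 0.44, limma adjusted p = 0.0274), and Sgk1, a kinase that opposes it, differed by -0.17 (limma adjusted p = 0.239).

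Trpm4, a cation channel opened by calcium, was the 1 other TRP gene called of 5 tested. It ranged from 5.99 to 6.33 in null, 5.74 to 6.01 in heterozygous and 5.76 to 5.95 in wild-type arrays (1.26-fold, log2 difference between null and wild-type 0.33, limma adjusted p = 0.0127). The calls of Wnk4 and Trpm4 against wild-type held whichever array was left out, and without both arrays against the labelled sex (log2 differences 0.65 and 0.33, limma adjusted p 0.00423 and 0.0436). With the label number, a number of unstated meaning in each sample's description, as covariate the Trpm4 call was lost (0.37, limma adjusted p = 0.0921). Of the other CLC proteins and their subunits, 7 were tested and Hepacam, a glial adhesion protein that binds ClC-2, was called (log2 difference between null and wild-type 0.51, limma adjusted p = 0.0211). Hepacam passed the filter without any wild-type array, whose highest value was 5.33. Astrocyte markers also reached higher in null arrays, as given with Aqp4, and their part in the Hepacam difference was not tested. Clic3, of the family of Clic6, was 1.28-fold higher in null than in wild-type (log2 difference 0.35, limma adjusted p = 0.0315), while Clic1 differed by -0.01 (limma adjusted p = 0.963).

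Of 10 other anion channel genes tested, 3 were called between null and wild-type. Lrrc8d, a subunit of the volume-regulated anion channel, was higher (0.21, limma adjusted p = 0.0397), as was Ttyh3 of the tweety family (0.26, limma adjusted p = 0.0485), and Pacc1, the proton-activated chloride channel, was lower (-0.30, limma adjusted p = 0.0224). Of the same volume-regulated channel, Lrrc8a was higher (0.25, limma adjusted p = 0.0432) and Lrrc8c lower (-0.42, limma adjusted p = 0.0294) in null than in heterozygous arrays, and neither was called against wild-type arrays. The Lrrc8a call was lost in 11 of the 15 fits without 1 array, and that of Lrrc8c without null 1, null 3, heterozygous 1 or heterozygous 5. The calls against wild-type of Hepacam, Clic3, Lrrc8d, Ttyh3, Pacc1, Nedd4l and Rcan1 were lost when 1 array was left out. It was null 1 or wild-type 1 for Hepacam, null 1 or wild-type 2, 4 or 5 for Clic3, null 1 or wild-type 1 or 3 for Pacc1, and null 1 or 3 or wild-type 1, 2 or 5 for Nedd4l. For Rcan1 it was null 1, 3 or 5 or wild-type 1, 2 or 5. The calls of Lrrc8d and Ttyh3 were lost in 8 and 11 of the 15 fits without 1 array, which included null 1 and wild-type 1 to 4 for both. Without both arrays against the labelled sex none of these 7 stayed called (limma adjusted p between 0.0682 for Ttyh3 and 0.167 for Rcan1). With the label number as covariate the differences of Rcan1 (-0.15), Pacc1 (-0.21) and Lrrc8d (0.19) were smaller. Those of Hepacam (0.70), Clic3 (0.59), Nedd4l (0.59) and Ttyh3 (0.35) were larger.

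**Figure D4:**
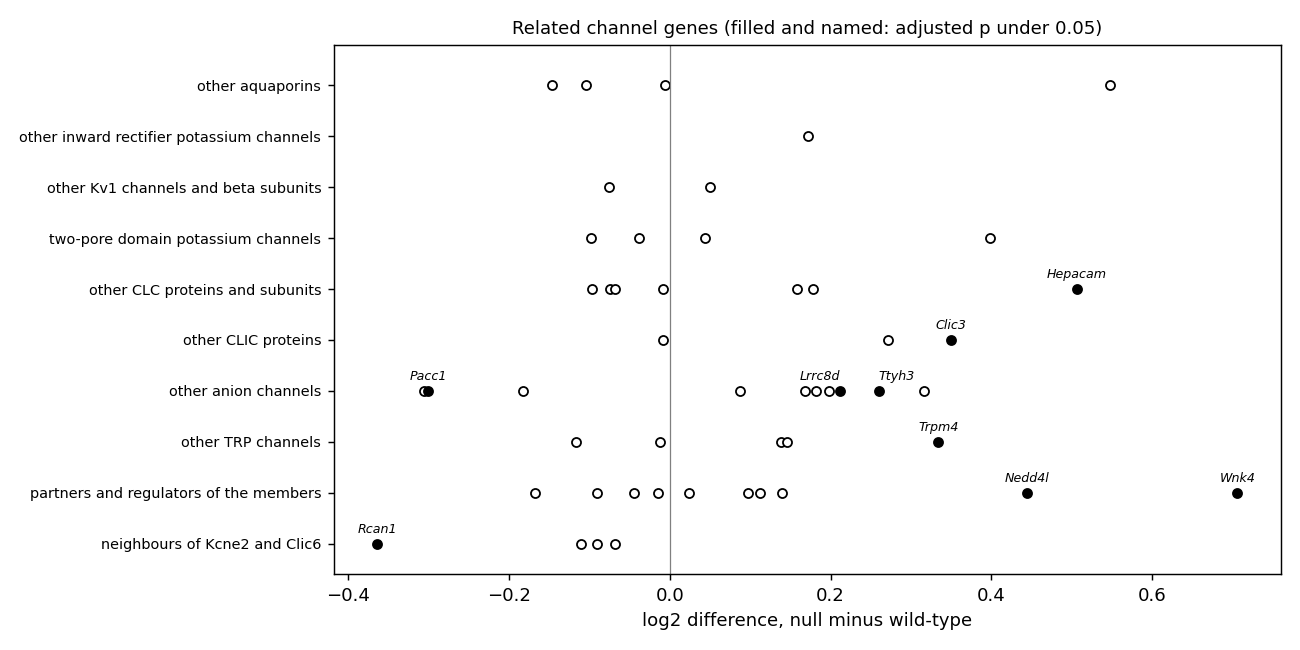
Log2 difference, null minus wild-type, of each tested gene related to the members, by family; filled and named points have an adjusted p under 0.05 over all tested genes. The named points run from -0.36 (Rcan1) to 0.71 (Wnk4), and rows with open points alone hold no called gene.

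For the called members, the genes whose levels ran most closely with them over the 15 arrays were listed as a description, by Pearson r over arrays that share the genotypes and the scaling. They were Bmper (r = 0.951), Cfap54 (0.937) and Fgfr2 (0.934) for Aqp1, Cfap61 (0.916), Mdh1 (0.908) and Ephx2 (0.902) for Kcnj13, and Immt (0.906), Atp1b1 (0.899) and Fuca2 (0.894) for Kcne2. For Clcn2 they were Tspan14 (0.906), Ppp1r3b (0.887) and Mamld1 (0.882), and for Trpm3 Slc25a36 (0.944), Deptor (0.937) and Tnrc6a (0.935). Atp1b1 encodes the beta subunit of the sodium pump. Once the genotype means were taken out, the closest gene was Coro7 (0.903) for Aqp1, Pyurf (0.862) for Kcnj13, Gdap2 (0.879) for Kcne2, Clmp (0.851) for Clcn2 and Slc12a2 (0.918), the sodium, potassium and chloride cotransporter, for Trpm3. Each gene was picked for its high r among the tested genes with an approved name, and how high such a pick runs was not tested. No gene was on both lists of a member.

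**Figure D5:**
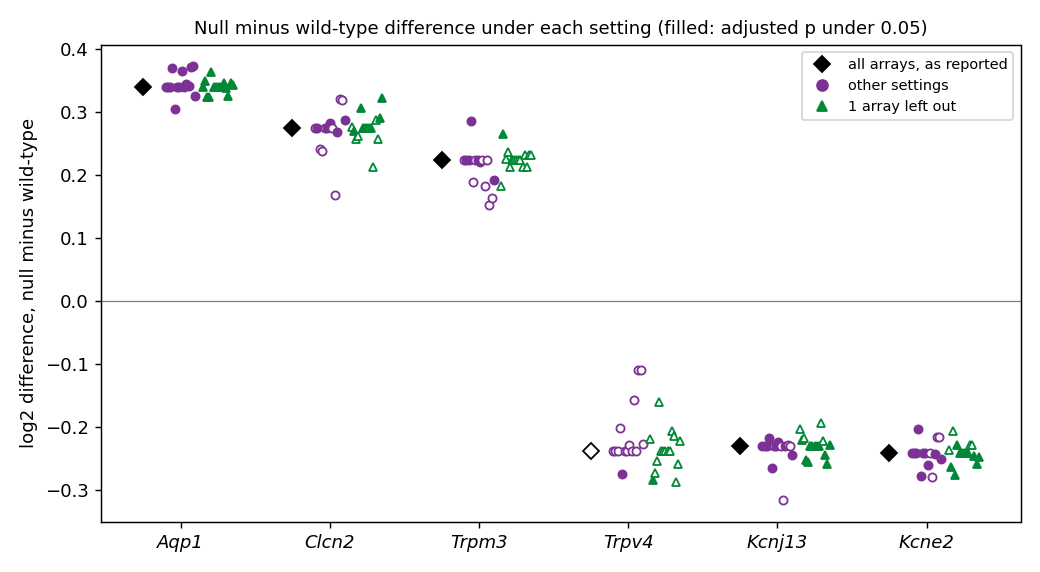
Log2 difference, null minus wild-type, of 6 channel genes with all arrays as reported (diamonds), under each other setting of the processing (circles) and with 1 array left out (triangles); filled symbols have an adjusted p under 0.05. Aqp1 is filled throughout, Trpv4 mostly open, and no gene crosses 0.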

How the data were processed

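RNA of the choroid plexus of 15 mice was measured on 1 single-colour whole-transcript Affymetrix array each. The deposited values come from RMA in Affymetrix Expression Console 1.1, per the submitters' processing notes, and are on the log2 scale as read from their range (1.57 to 13.89); RMA subtracts background, quantile-normalizes arrays and summarises probes, so it removes differences in total signal. Of 35556 probe sets, 21789 carried 1 gene symbol in the platform annotation, 1621 several and 12146 were unnamed here; 21698 identifiers were found in the gene table of GRCm38.p6. The highest-mean probe set of each gene was kept. Genes above 5.33 in at least 5 arrays entered 1 linear model with a mean per genotype (limma 3.58.1, R 4.3.3, 12 residual degrees of freedom), and Benjamini-Hochberg adjusted p-values under 0.05 over 10069 genes were called. Single genes were also compared by exact two-sided permutation over 252 regroupings, 11 of 30 under 0.05 unadjusted; an adjustment over these 30 that the plan named was not made. The members, gene lists and tests were chosen with earlier results of these data known. Named beside the members were Add1, called genes of each list with some that were not called, and the 3 genes closest to each called member. On simulated data with independent noise, the limma procedure called 44.9% of genes shifted by a log2 difference of 0.3 between null and wild-type. It called 90.9% of those shifted by 0.5 and 97% of those shifted by 1, and 6.25% of its calls were false. Arrays carry no read depth, so their number limits the precision. No arrays held identical values (r 0.955 to 0.995 over 105 pairs), and each was counted as 1 animal. Alternatives are listed in the closing section.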

Additional observations from a re-analysis of the deposited data

Results flagged for a closer look

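Of the 30 sets of 5 arrays (10 members in 3 genotypes), 2 held an array far from the other 4, and chance flags about 1 in 20 such sets. Heterozygous 1 had a Kcna1 level of 5.24, where the next heterozygous array had 4.62. Heterozygous 1 also had the highest mean of 9 neuron markers, 6.81, where the other heterozygous arrays had 5.17 to 5.36, and their part in the Kcna1 value was not tested. Null 2 had a Kcna3 level of 5.86, where the next null array had 5.45. Neither gene was called in any pair of genotypes, and Kcna1 was not tested across genes.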

How the results depend on the processing

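Aqp1 kept its call between null and wild-type under all 14 other settings (log2 difference 0.30 to 0.37, limma adjusted p at most 0.0478). Kcnj13 kept it in 9 of 14, Kcne2 in 10 of 14, Clcn2 in 5 of 13 and Trpm3 in 6 of 14, and no call of a member changed direction. The count of called members between null and wild-type, 5, was 3 with no filter, 2 with only the 2 genotypes compared, and 1 with the replicate block, with the label number as covariate, without the arrays against the labelled sex or with Xist as covariate, and 1 to 6 with 1 array left out. Between null and heterozygous, 4 became 2 with no filter, median centring, only the 2 genotypes compared or the replicate block, 1 without the arrays against the labelled sex or with Xist as covariate, 0 with the label number as covariate, and 2 to 4 with 1 array left out. Aqp1 lost that call with the label number as covariate alone (0.26, limma adjusted p = 0.12).

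The 9 related genes called between null and wild-type became 5 with no filter or the label number as covariate, 2 with the stricter filter, 4 without the arrays against the labelled sex, 3 with Xist as covariate, and 2 to 12 with 1 array left out. The 6 between null and heterozygous became 3 with no filter or the label number as covariate, 2 with Xist as covariate, and 2 to 11 with 1 array left out. All called genes between null and wild-type, 778, became 461 with only the 2 genotypes compared, 1320 with array weights, 518 with the replicate block, 257 with the label number as covariate, 396 without the arrays against the labelled sex, 315 with Xist as covariate, and 390 to 1418 with 1 array left out. Between null and heterozygous, 798 became 500 with no filter, 343 with only the 2 genotypes compared, 1297 with array weights, 195 with the label number as covariate, 330 without the arrays against the labelled sex, 248 with Xist as covariate, 417 with neuron markers as covariate, and 356 to 1815 with 1 array left out. Between heterozygous and wild-type, 0 became 1 with array weights, without the arrays against the labelled sex and with Xist as covariate, and 0 to 1 with 1 array left out. Of the genes called between null and wild-type, 54% were higher, against 31.8% after median centring. The Add1 difference of -0.31 lost its call with only the 2 genotypes compared or the replicate block (both -0.31), with the label number (-0.27) or Xist (-0.26) as covariate, without the arrays against the labelled sex (-0.26), and without null 4, wild-type 1 or wild-type 2 (-0.30 to -0.28). Over all fits with 1 array left out it ran from -0.35 to -0.26.

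Signs turned only for differences that were never called. Between heterozygous and wild-type, Clic6 became 0.0247 after repeated quantile normalization and 0.013 with neuron markers as covariate (-0.02 to 0.0275 with 1 array left out), and Kcnj13 became 0.0449 after repeated quantile normalization (-0.0575 to 0.0075). In the same pair Kcnq1 became -0.0112 after it, -0.012 after median centring and -0.0198 with array weights (-0.0195 to 0.0725). Between null and wild-type, Kcna3 became -0.0299 after repeated quantile normalization, -0.03 after median centring and -0.0535 with array weights (-0.082 to 0.0455), and Kcnq1 became 0.1001 with the label number as covariate (-0.0675 to 0.015). Between null and heterozygous, Kcnq1 became 0.0657 with the label number as covariate, and Kcna3 ran from -0.018 to 0.123 with 1 array left out.

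In a check for pairing, same-numbered arrays of different genotypes, which the replicate block joins, had an r of -0.253 to 0.238. This r is not that of the array levels themselves, which was 0.955 to 0.995 over all pairs of arrays. Between heterozygous and wild-type arrays the same-numbered array was the best match for numbers 1, 2, 3 and 5 (r 0.071 to 0.151), and not for number 4. Between null and heterozygous arrays it was so for number 5 alone, and between null and wild-type arrays for no number. Whether the numbers mark a pairing was not settled. The causes of the changes under these settings were not tested. A setting that read members from their lowest-mean probe set was not run, since each has 1, and the stricter filter gave no value for Kcnq1, Kcna3 and Clcn2. The label number, whose meaning is not given, runs higher in null mice, so it and genotype can be told apart only in part. With 5 arrays a genotype, a difference the size of those in Kcnj13 or Trpm3 lies near the threshold.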
